A study of Mus musculus with 21 samples.

Results

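The AMPA receptor genes and the genes of their transmembrane auxiliary subunits were followed in mouse cochlear spiral ganglion neurons (SGNs). The 10 members were chosen by symbol: the 4 pore-forming subunits Gria1, Gria2, Gria3 and Gria4 (proteins GluA1 to GluA4), and the 6 transmembrane AMPA receptor regulatory proteins, or TARPs, Cacng2, Cacng3, Cacng4, Cacng8, Cacng5 and Cacng7 (proteins γ-2, γ-3, γ-4, γ-8, γ-5 and γ-7). They are 10 of the 52550 genes in the table. RNA was sequenced from SGNs of 5 ages (E15.5 before birth, then P1, P8, P14 and finally P30), from hair cells (HCs) at P12 and from cochlear glial cells at P8, and each of these 7 groups had 3 replicates. SGNs came from ShhCre/+ mice, HCs from Atoh1-CreER+ mice given tamoxifen at P0 and P1, and glial cells from vGlut3-iCreER/+ mice given tamoxifen at P2 and P3. All 3 lines carried the Cre-dependent tdTomato reporter in Rosa26 on a C57BL/6 background, and cells were taken by their red fluorescence. Each SGN library was made from 69 to 195 hand-picked cells and each glial library from 86 to 125. Each HC library was made from about 1200 cells of the cochlea and the vestibular organs together. The study's methods describe fluorescence-activated sorting for the HCs, so cell type and way of collection cannot be told apart between SGNs and HCs. Nothing in the sources used here says that the replicates came from separate animals, so p-values measure the spread between these libraries, which may be technical.

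AMPA receptors are tetramers of GluA subunits that open when glutamate binds, and they carry the fast excitatory current between inner hair cells and SGNs. The HC releases glutamate at ribbon synapses, and the receptors sit in the postsynaptic membrane of the SGN dendrite. A receptor that contains edited GluA2 passes little calcium, because the enzyme ADAR2, the product of Adarb1, changes a glutamine codon in the pore loop of the Gria2 transcript to one read as arginine. TARPs bind the receptor in the membrane, where type I TARPs (γ-2, γ-3, γ-4 and γ-8) promote its delivery to the surface and slow its closing, and type II TARPs (γ-5 and γ-7) act differently and more selectively on its gating and conductance. The sequence of this editing site shows which subunits share the codon and where the reads of these genes would carry the change. The glutamine codon is in capitals in each 30-base window of coding sequence, read 5′ to 3′ along the gene's own strand from GENCODE M21 on GRCm38, the assembly also called mm10.
Gria1: ggggccttcatgCAGcaaggatgtgacatt
Gria2: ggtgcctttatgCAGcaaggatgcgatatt
Gria3: ggtgcttttatgCAGcaaggatgtgatatt
Gria4: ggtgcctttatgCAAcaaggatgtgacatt

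The windows lie in coding exons at chr11:57243082-57243111 on the plus strand for Gria1 (exon 11), chr3:80706896-80706925 on the minus strand for Gria2 (exon 11), chrX:41610253-41610282 on the plus strand for Gria3 (exon 11) and chr9:4464122-4464151 on the minus strand for Gria4 (exon 12). Of the 30 bases of the Gria2 window, Gria1 shares 26, Gria3 shares 28 and Gria4 shares 27. The genome encodes glutamine at this position in all 4 genes. The deposited counts are sums per gene, so they hold neither the edited share of Gria2 nor the split between the flip and flop splice forms.

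The members are spread over 6 chromosomes, and several TARP genes are neighbours. Gria1 spans chr11:57011387-57330244, Gria2 chr3:80681450-80802835, Gria3 chrX:41400854-41678601 and Gria4 chr9:4417896-4796234. Cacng4 (chr11:107732357-107794557) and Cacng5 (chr11:107874605-107915055) lie next to each other and to Cacng1, while Cacng7 (chr7:3332955-3368221) and Cacng8 (chr7:3390683-3415648) lie beside Cacng6. Cacng2 (chr15:77991748-78120028) and Cacng3 (chr7:122670492-122769393) stand alone. Cacng2 shares exonic bases with the antisense gene A730060N03Rik, and since the strand setting of the counting is not given in the sources used here, reads of this pair cannot be told apart. A730060N03Rik itself held 585 counts over the 21 libraries.

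The gene counts of a library summed to 10368240 at the least and 37287489 at the most (median 20384100). A count of 0 allows up to 3 counts, which is 0.0805 to 0.289 CPM (counts scaled to a common library total) depending on the library, and such limits cover counting error only. The 6 neuron markers (Tubb3, Snap25, Nefl, Nefm, Elavl4 and Syt1) summed to 949 to 9007 TPM (counts divided by gene length and scaled to that same total) in the 15 SGN libraries, to 384 to 412 in HCs and to 30.9 to 323 in glial cells. The 4 Schwann cell myelin markers Mbp, Pmp22, Mag and Prx summed to 356 to 709 TPM in SGNs at P8 and to 4.80 to 524 TPM at the other ages, against 1760 to 2476 TPM in glial cells. The 6 HC markers, Myo7a and Otof among them, summed to 2767 to 3187 TPM in HCs and to at most 226 TPM in SGNs and 97.7 TPM in glia. In bulk RNA of this kind, fewer cells of a type and less RNA per cell cannot be told apart. E15.5 replicate 2 was the lowest of the E15.5 libraries in TPM for 8 of the 10 members, all but Gria1 and Cacng3. By CPM it was the lowest only for Gria2, Gria4, Cacng2, Cacng8 and Cacng5, and replicate 3 was the lowest for the others. The share of all genes lowest in replicate 2 was not counted, so this is no trait of the members.

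SGNs carried the RNA of 3 pore subunits, Gria2, Gria3 and Gria4, and Gria1 was close to absent. TPM divides each count by the length deposited with the gene, so that levels of different genes can be compared. The order of the pore subunits depends on those lengths, and by CPM it was different. At P30 the mean level was 35.3 ± 13.99 TPM for Gria4 (SD, n = 3), 24.0 ± 15.1 TPM for Gria3 and 19.9 ± 9.29 TPM for Gria2, and the libraries of these genes overlapped. At E15.5 the same order held, with 33.4 ± 18.2 TPM for Gria4, 22.0 ± 10.1 TPM for Gria3 and 8.26 ± 3.27 TPM for Gria2, where Gria4 and Gria3 overlapped and every Gria3 library lay above every Gria2 library. Within each E15.5 and each P30 library, Gria4 stood above Gria3 in TPM. Gria1 had more than 3 counts in 6 of the 15 SGN libraries and 0 counts in 7, and its highest level was 1.66 TPM, in P14 replicate 1. That library also had the highest sums of astrocyte (12.1 TPM) and oligodendrocyte (14.9 TPM) markers of all 21, and their part in its Gria1 was not tested. Gria1 did not reach the filter on low counts and was not tested for change.

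**Figure D1:**
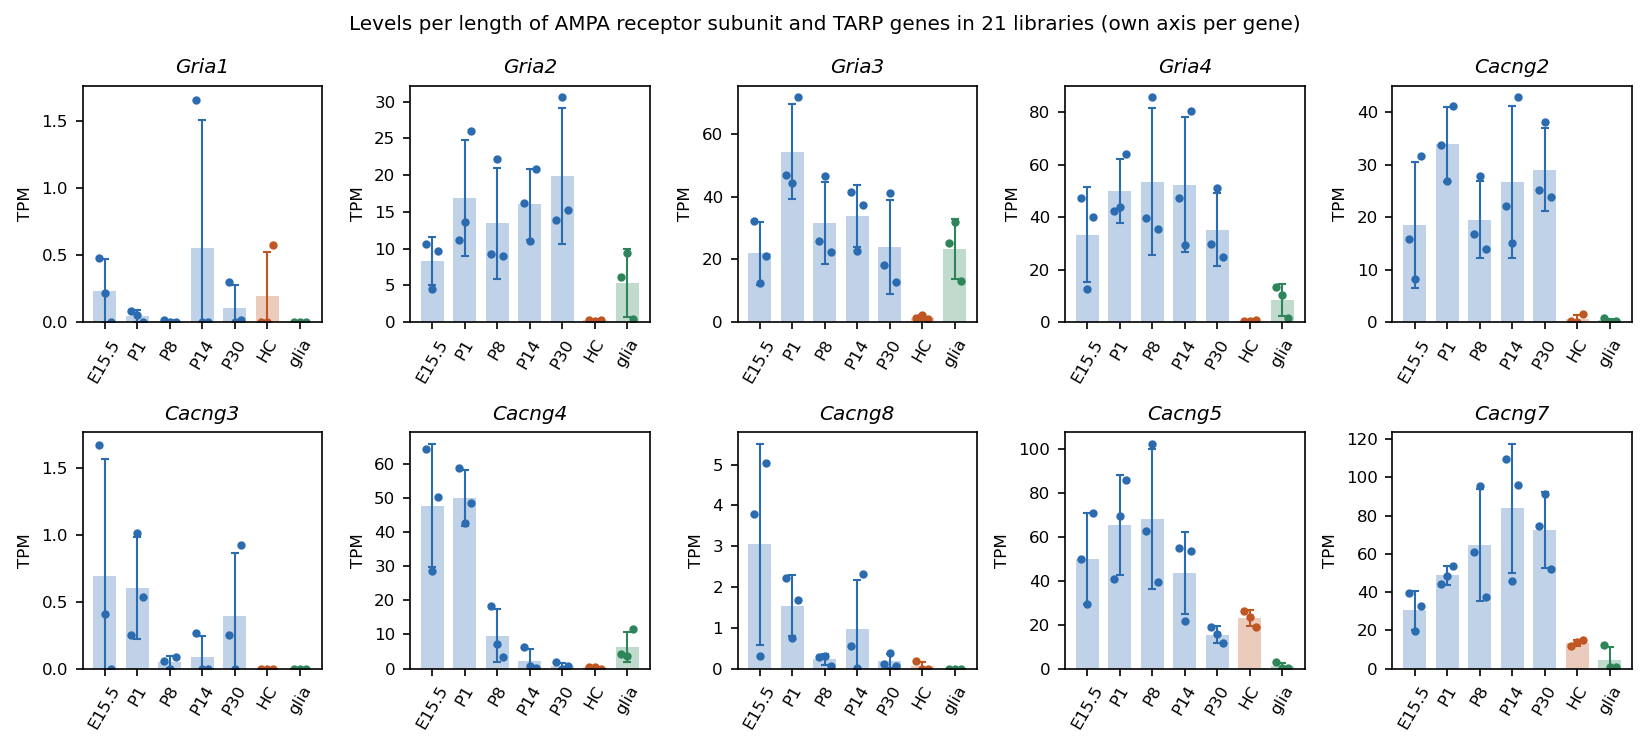
TPM of each member gene in the 21 libraries, with SGN ages in blue, HCs in orange and glial cells in green. Points are libraries, bars are group means and whiskers are SDs (n = 3). Each gene has its own axis: Gria1 and Cacng3 stay under 1.7 TPM while Cacng7 reaches 110 TPM.

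Among the TARPs, the type II member Cacng7 stood highest in mature SGNs. At P30 Cacng7 reached 72.6 ± 19.8 TPM, with every library above every library of the next member, Gria4. Cacng2, which encodes stargazin, followed among TARPs with 29.0 ± 7.91 TPM and Cacng5 with 15.4 ± 3.82 TPM. Cacng4, Cacng3 and Cacng8 had means of 0.810, 0.392 and 0.182 TPM at P30. At E15.5 the order was different, with Cacng5 at 49.9 ± 20.6 TPM and Cacng4 at 47.8 ± 18.1 TPM ahead of Cacng7 at 30.6 ± 10.2 TPM, and the libraries of each of these overlapped with those of the next. Within each E15.5 library, Cacng7 was below both Cacng4 and Cacng5 in TPM. Cacng3 did not reach the filter on low counts either, with more than 3 counts in 10 of the 15 SGN libraries and 1.68 TPM at most. The other gamma subunits of the family, Cacng1 and Cacng6, which belong with muscle calcium channels and are not TARPs, also went untested: Cacng1 was at most 5.30 TPM and Cacng6 at most 0.128 TPM in SGNs.

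The change with age was tested with limma on counts normalised by the trimmed mean of M values (TMM), in the 15 SGN libraries and 15113 genes. A gene passed when it changed by more than 2-fold with a Benjamini-Hochberg adjusted p under 0.05. From E15.5 to P30, 5 of the 8 members tested passed, against 34.6% of all genes tested. Gria2 and Cacng7 rose, where 18.4% of all genes rose, and Cacng4, Cacng8 and Cacng5 fell, where 16.2% of all genes fell. The median log2 fold change of the 8 members was 0.30, beside -0.01 over all genes tested. Gria1 and Cacng3, the other two members, were not tested. The E15.5 libraries also stood apart in other measures: mitochondrial genes took 9.57 to 13.5% of their counts against 17.9 to 22.1% at P30, and the neuron markers summed to 949 to 1806 TPM against 3846 to 6175 TPM. Without mitochondrial genes the same 5 members passed, and the part of these differences in the members' changes was otherwise not tested.

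Gria2 rose 2.66-fold. On the scale of the test (CPM normalised by TMM), its E15.5 libraries held 101, 73.1 and 79.3 and its P1 libraries 92.9, 126 and 153. The P8 libraries held 103, 146 and 135, those of P14 113, 202 and 146 and those of P30 171, 273 and 244. All P30 libraries lay above all E15.5 libraries, while each pair of neighbouring ages overlapped. The log2 fold change from E15.5 to P30 was 1.41 (SE 0.26, adjusted p = 0.000518, limma), and of the 4 steps between ages, none passed for Gria2. The last step, from P14 to P30, had a log2 fold change of 0.57 (SE 0.24, adjusted p = 0.673, limma).

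Gria3 and Gria4 did not pass in any step. Gria3 stood at 145 ± 46.4 normalised CPM at E15.5 (SD, n = 3), 258 ± 11.4 at P1, 197 ± 15.7 in P8 SGNs, 204 ± 50.3 at P14 and 168 ± 56.4 at P30. Its log2 difference from E15.5 to P1 was 0.90 (SE 0.23, adjusted p = 0.0192, limma), short of 2-fold, and all 3 P1 libraries lay above all 3 E15.5 libraries on this scale. From E15.5 to P30 its log2 difference was 0.22 (95% interval -0.29 to 0.73). Gria4 stood at 134 ± 50.0 normalised CPM at E15.5, 208 ± 25.8 at P8 and 165 ± 18.3 at P30, and its log2 difference from E15.5 to P30 was 0.39 (95% interval -0.14 to 0.92).

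**Figure D2:**
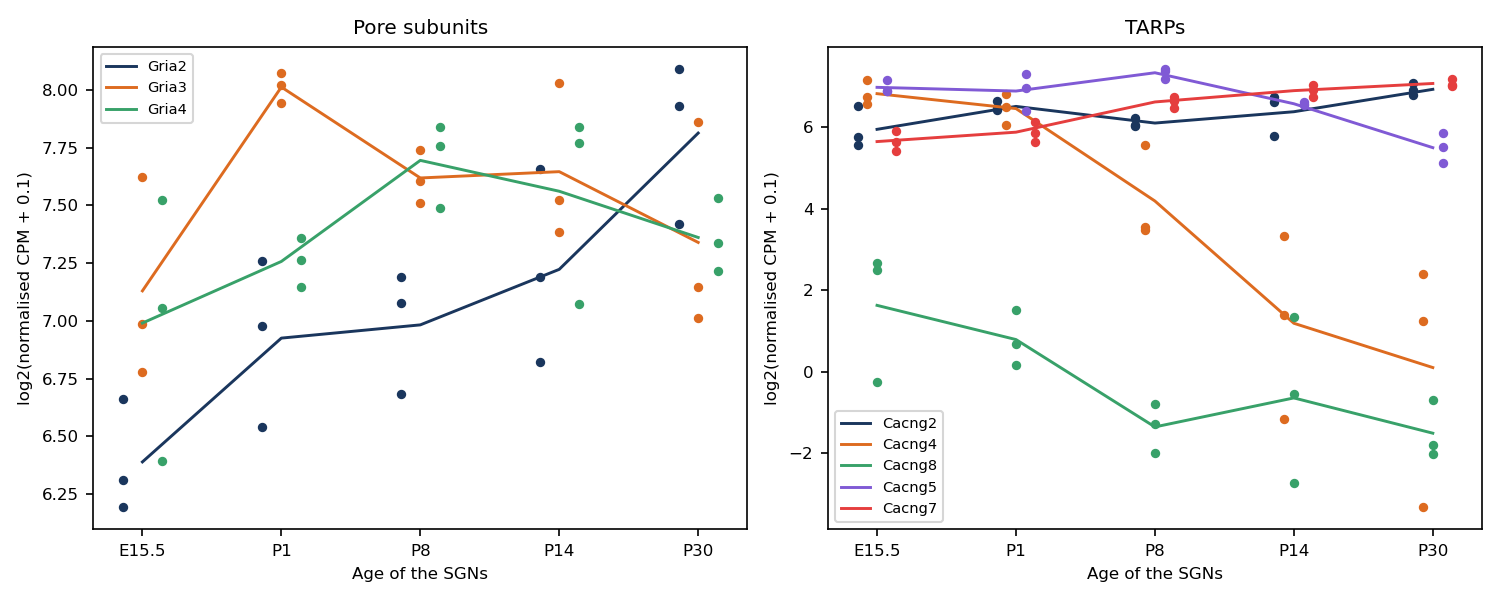
log2(normalised CPM + 0.1) of the members tested in SGNs at 5 ages, pore subunits on the left and TARPs on the right. Points are libraries and lines join the means of 3 libraries on the log scale. Gria2 and Cacng7 end above their E15.5 libraries, Cacng5 below them, and Cacng4 and Cacng8 drop furthest (Cacng4 had 0 counts in P30 replicate 2).

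The balance of the pore subunits held 3 genes at every age, with a larger part of Gria2 at P30. Of the summed TPM of the 4 Gria genes, Gria2 made up 11.6, 15.1 and 13.7% in the E15.5 libraries and 22.3, 24.9 and 28.8% in the P30 libraries. At P1, P8 and P14 its share ran from 11.2 to 17.5%, so the 3 libraries at P30 stood above the other 12. This share compares genes within a library and does not depend on how libraries are scaled against each other. It does depend on length, since 15548 bases were deposited for Gria2 although its annotated transcripts run from 1975 to 10371 bases. For Gria3 9859 bases were deposited against a longest transcript of 5206, and for Gria4 6305 against 5441. By CPM, with no division by length, Gria2 made up 23.7% ± 2.50 of the 4 genes at E15.5 and 40.7% ± 4.48 at P30. At P30 this was the largest mean share by CPM, beside 29.7% ± 2.71 for Gria4 and 29.5% ± 4.89 for Gria3. At E15.5 Gria3 had the largest, with 39.8% ± 5.25 beside 36.2% ± 6.10 for Gria4. Gria4 held 50.5% ± 6.98 of the summed TPM at E15.5 and 45.6% ± 3.44 at P30, and Gria3 held 35.6% ± 5.75 and 28.9% ± 4.73.

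Of the 3 type I TARPs tested, Cacng4 and Cacng8 fell and Cacng2 did not pass. Cacng4 had the larger fall. Its libraries held 142, 106 and 94.5 normalised CPM at E15.5 and 112, 90.2 and 65.9 at P1. They then held 46.7, 10.9 and 11.5 in P8 SGNs, 9.94, 2.51 and 0.350 in P14 SGNs, and 5.14, 0 and 2.26 in P30 SGNs. The groups from P8 onwards lay below all libraries of E15.5 and P1. From E15.5 to P30 the group means fell from 114 to 2.46, a ratio of 46.4, and the fitted log2 fold change was -7.10 (SE 1.54, adjusted p = 0.00166, limma). Because 1 P30 library was at 0, this fitted value rests on it: without P30 replicate 2 it was -4.92, without P30 replicate 1 it was -8.81 and without P30 replicate 3 it was -7.81. The call passed in each case.

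Cacng4 was also the 1 member of the 8 tested that passed in a step between neighbouring ages. From P1 to P8 its log2 fold change was -2.24 (SE 0.52, adjusted p = 0.00990, limma), where 7.44% of all genes passed and 3.15% fell. The call was lost without P8 replicate 2 (-1.85, adjusted p = 0.0664) and without P8 replicate 3 (-1.97, adjusted p = 0.0524), and the value was -2.98 without P8 replicate 1. It was also lost with edgeR (-1.95, adjusted p = 0.273) and with DESeq2 (-1.97, adjusted p = 0.373). No member passed from E15.5 to P1 (8.26% of all genes passed), from P8 to P14 (0.536%) or from P14 to P30 (0.0596%). At an unadjusted p under 0.05 (limma), 2 members were counted from E15.5 to P1 (Gria3 and Cacng2), 2 from P8 to P14 (Cacng4 and Cacng5) and 3 from P14 to P30 (Gria2, Cacng2 and Cacng5). The share of all genes under that threshold was not counted in these steps, so these counts cannot be read against a background. DESeq2 and edgeR gave no member in the first 2 of these steps, and from P14 to P30 edgeR gave 0 and DESeq2 gave 1, Cacng5.

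Cacng2, the type I TARP with the highest level at P30, stood at 53.5, 47.0 and 91.8 normalised CPM at E15.5 and at 110, 120 and 135 at P30. The 3 later libraries were above the 3 earlier ones. Its log2 difference was 0.96 (SE 0.26, adjusted p = 0.00736, limma), which is 1.94-fold and just short of the 2-fold limit. It passed with sample quality weights (1.03), without E15.5 replicate 3 (1.27) and without P30 replicate 1 (1.05). With library size alone in place of TMM the value was lower, at 0.49, or 0.97 relative to the median of all genes. Cacng8 was at 5.48, 0.733 and 6.22 normalised CPM at E15.5 and at 0.186, 0.515 and 0.147 at P30, and it fell with a log2 fold change of -3.45 (SE 1.27, adjusted p = 0.0388, limma). At most 10 counts lay behind each P30 value. Cacng8 met the filter on low counts only at P1, and at neither of the ages compared here. That call was lost without E15.5 replicate 1 or 3 or any 1 of the P30 libraries (adjusted p from 0.0675 to 0.121), and without E15.5 replicate 2 the log2 value was -4.52.

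The type II TARPs, Cacng5 and Cacng7, moved apart. Cacng7 stood at 59.4, 49.4 and 42.2 normalised CPM at E15.5 and 57.3, 69.9 and 49.9 at P1. P8 libraries held 107, 98.7 and 88.8, P14 libraries 121, 131 and 106 and P30 libraries 144, 128 and 131. The libraries of P8, P14 and P30 lay above all those of E15.5 and P1. It rose 2.73-fold from E15.5 to P30 (log2 1.45, SE 0.19, adjusted p = 2.09e-05, limma). The step from P1 to P8 was 1.68-fold (adjusted p = 0.0112, limma), under the 2-fold limit.

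Cacng5 stood at 118, 117 and 143 normalised CPM at E15.5 and 83.1, 158 and 124 at P1. Its P8 libraries held 171, 166 and 146, its P14 libraries 94.9, 97.5 and 92.2 and its P30 libraries 57.6, 34.8 and 45.2. The P14 libraries lay below those of P8, and the P30 libraries lay below all others. It fell 2.72-fold from E15.5 to P30 (log2 -1.45, SE 0.25, adjusted p = 0.000303, limma). Its step from P14 to P30 was 2.06-fold downward with an adjusted p of 0.213 (limma).

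Seen as shares of the summed TPM of the 6 TARPs, Cacng7 held 22.5, 22.5 and 17.2% in the E15.5 libraries and 61.6, 62.7 and 58.5% in the P30 libraries. Cacng5 held 28.4 to 37.1% at E15.5, 39.3 to 43.9% at P8 and 10.9 to 15.7% at P30. Cacng4 held 26.4 to 36.9% at E15.5 and at most 1.51% at P30, and Cacng2 held 9.002 to 16.6% at E15.5 and 20.8 to 26.8% at P30. None of these 4 ranges at E15.5 overlapped with the range at P30. The 4 are shares of the same sum, so lower shares of Cacng4 and Cacng5 leave higher shares for Cacng7 and Cacng2. They are therefore not separate observations. How often such ranges separate among other genes was not counted.

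**Figure D3:**
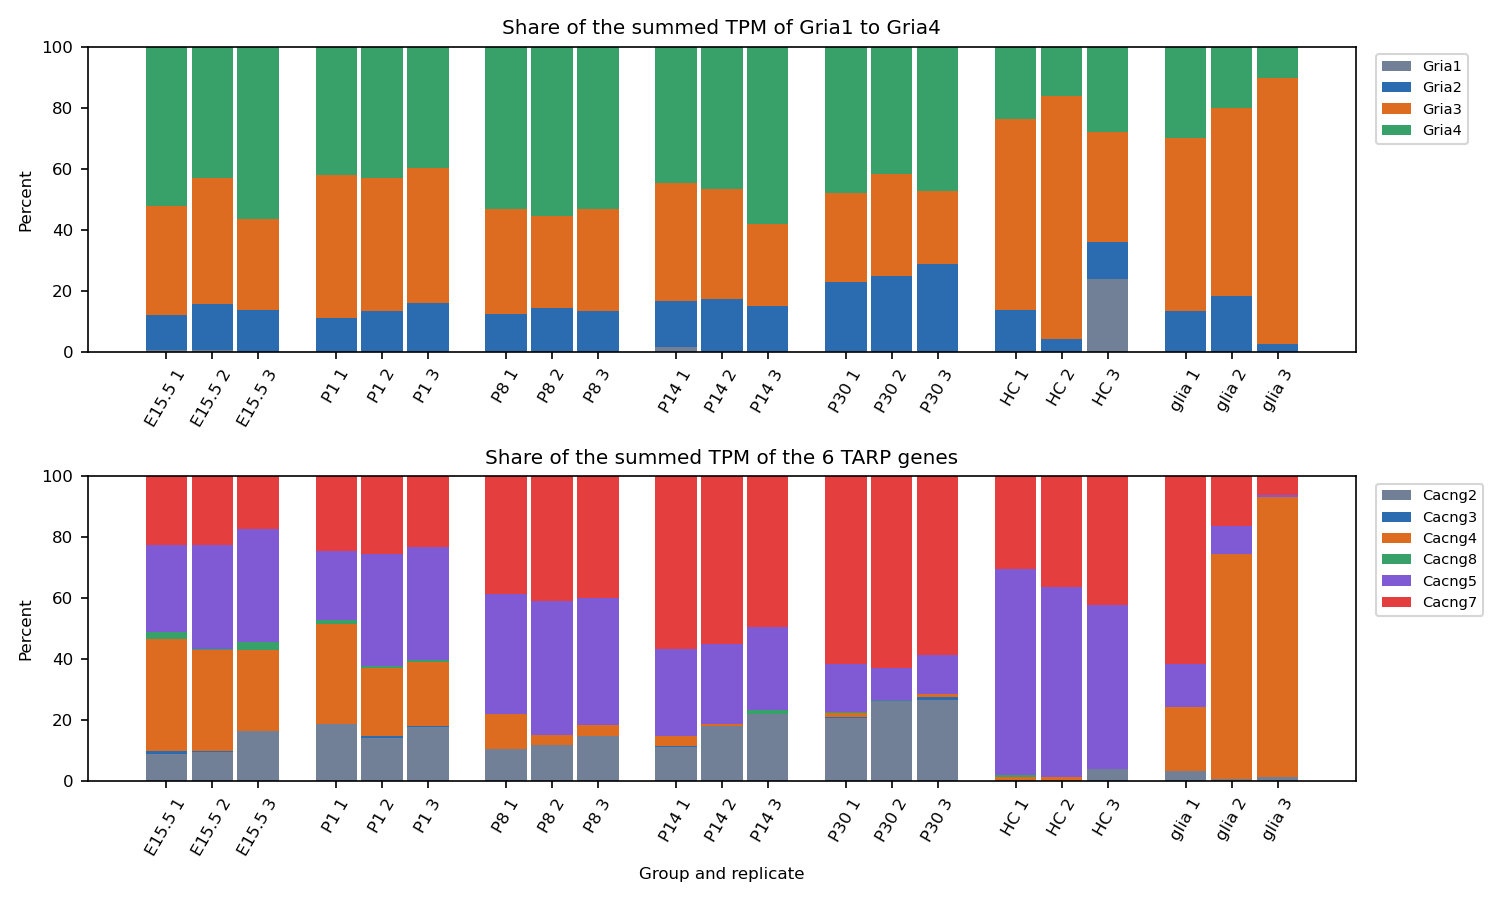
Share of each Gria gene in the summed TPM of the 4 Gria genes (top) and of each TARP in the summed TPM of the 6 TARPs (bottom), 1 bar per library. Gria2 takes 22.3 to 28.8% at P30 against 11.2 to 17.5% before, and Cacng7 grows from 17.2 to 22.5% at E15.5 to 58.5 to 62.7% at P30 as Cacng4 shrinks. HC bars of the top panel rest on few counts.

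The scaling of libraries bears on the size of these changes. With library size alone in place of TMM, the median of all genes from E15.5 to P30 shifted by -0.48 on the log2 scale. Gria2 then had a log2 difference of 0.93 and Cacng7 of 0.97, both under 2-fold, and relative to the median of all genes they stood at 1.42 and 1.46. Gria3 and Gria4 changed sign under this scaling, to -0.27 and -0.09, and neither passed under either scaling.

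HCs were compared with SGNs to ask which receptor genes were higher in these neurons than in hair cells. The HC libraries pooled cells of the cochlea and the vestibular organs, so their levels cannot be assigned to the cells presynaptic to SGNs. The mean of the 5 SGN ages was set against HCs with limma in all 21 libraries and 17531 genes, and a gene passed with more than 4-fold and an adjusted p under 0.01. All 8 members tested passed and all 8 were higher in SGNs, where 26.8% of all genes passed and 10.5% were higher in SGNs. Their median log2 difference was 6.06, beside 0.02 over all genes. Cacng2 and Cacng8 reached the filter on low counts only through SGN groups. These genes could enter the test only by being high in SGNs, so their direction is no separate support.

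The 3 pore subunits tested were low in HCs beside SGNs, with 12 to 30 counts a library for Gria2, 14 to 28 for Gria4 and 56 to 140 for Gria3. Gria2 was at 0.260, 0.121 and 0.291 TPM, Gria3 at 1.19, 2.22 and 0.857 TPM and Gria4 at 0.449, 0.446 and 0.670 TPM in the 3 HC libraries, all below every SGN library. The log2 difference of SGNs from HCs was 7.24 for Gria2 (SE 1.35, adjusted p = 0.000119, limma), 5.77 for Gria3 (SE 0.68, adjusted p = 4.20e-07) and 7.55 for Gria4 (SE 1.05, adjusted p = 3.75e-06). Gria1 had 0, 0 and 23 counts in HCs.

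The 2 type II TARPs were different in HCs, where Cacng5 stood at 26.0, 23.6 and 18.9 TPM and Cacng7 at 11.8, 13.8 and 14.8 TPM. These were the highest members in HCs, and every library of each was above every HC library of the 3 Gria genes tested. The log2 difference of SGNs from HCs was 2.17 for Cacng5 (SE 0.33, adjusted p = 1.31e-05, limma), close to the 4-fold limit, and 3.30 for Cacng7 (SE 0.42, adjusted p = 9.51e-07). The Cacng5 call was lost without HC replicate 3 (log2 1.99) with library size alone (1.61) and with DESeq2 (1.92). HC levels of Cacng5 lay beside 11.4 to 19.0 TPM in SGNs at P30, a comparison that was not tested. The 3 SGN markers Slc17a6, Slc17a7 and Lypd1 summed to 5.88 to 9.71 TPM in HCs against 37.6 to 601 TPM in SGNs.

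Type I TARPs were low in HCs. Cacng2 was at 0.147, 0.0567 and 1.48 TPM there and had a log2 difference of 7.75 (SE 0.94, adjusted p = 5.56e-07, limma). HC replicate 3, which also held the 23 counts of Gria1, carried most of the HC signal of Cacng2, and the value was 9.02 without it and 6.75 without HC replicate 2. Cacng4 had 8, 10 and 0 counts in HCs and a log2 difference of 6.36 (SE 1.54, adjusted p = 0.00156, limma). Since Cacng4 falls with age, this value depends on which SGNs are used: against P14, the age nearest to the HCs, it was 3.90 (adjusted p = 0.0942), and the call was also lost without HC replicate 3 (4.81, adjusted p = 0.0288). Without HC replicate 1 it was 7.14 and without HC replicate 2 it was 7.10. Cacng8 had 2, 0 and 0 counts. The mean of the 5 SGN ages was at least 8.69-fold higher on the CPM scale over a mean floor of 3 counts per library. That bound covers the mean only, since the P30 libraries held 0.161, 0.491 and 0.120 CPM beside a mean floor of 0.196 CPM. Cacng8 passed against HCs (adjusted p = 0.00197, limma), and this call was lost at P14 (adjusted p = 0.0291) and without HC replicate 2 or 3. Cacng3 had 0 counts in all HC libraries.

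**Figure D4:**
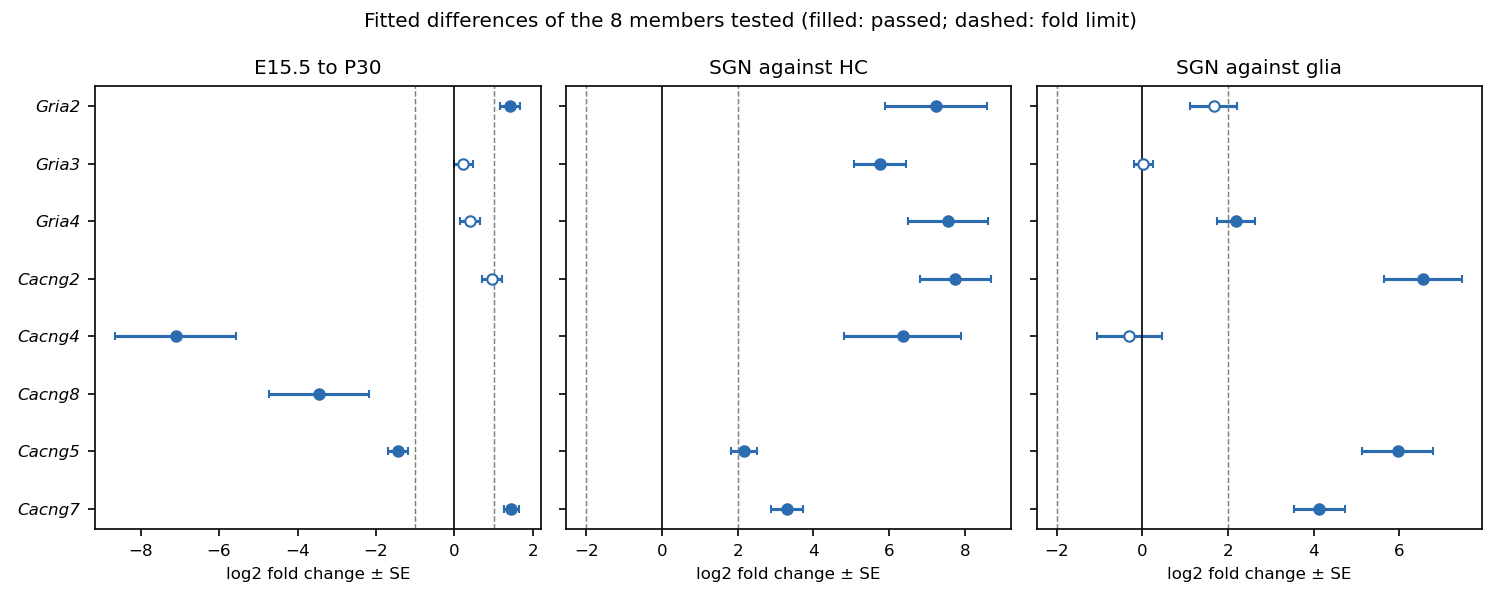
Fitted log2 fold change (limma, whiskers are SEs) of the members tested, for SGNs from E15.5 to P30 and for the mean of the SGN ages against HCs and against glial cells. Filled points passed the thresholds of their comparison and dashed lines are the fold limits. Cacng8 is drawn only for the ages, since its HC and glial libraries held 0 to 2 counts. Gria3 and Cacng4 lie at 0.01 and -0.31 against glial cells.

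Against glial cells, 5 of the 8 members tested passed and all 5 were higher in SGNs, where 24.7% of all genes passed and 14.3% were higher in SGNs. These were Cacng2, Cacng5, Cacng7, Cacng8 and Gria4. The median log2 difference of the 8 was 3.16, beside 0.22 over all genes. Here too, Cacng2 and Cacng8 had entered the test only through SGN groups. Gria2, Gria3 and Cacng4 did not pass.

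Gria3 stood at 25.3, 31.9 and 13.0 TPM in the glial libraries and at 25.8, 46.7 and 22.4 TPM in SGNs of the same age, P8. The ranges overlapped, and the log2 difference of the mean SGN from glia was 0.01 (95% interval -0.45 to 0.47, adjusted p = 0.965, limma). Gria2 stood at 6.07, 9.46 and 0.369 TPM in glia and at 9.21, 22.1 and 8.96 TPM in P8 SGNs. Its log2 difference was 1.66 (SE 0.54, adjusted p = 0.0145), with 2.31 without glia replicate 1 (adjusted p = 0.0132), 2.31 without glia replicate 2, which passed (adjusted p = 0.00703), and 0.51 without glia replicate 3. Gria4 stood at 13.4, 10.3 and 1.53 TPM in glia and had a log2 difference of 2.19 (SE 0.44, adjusted p = 0.000347, limma). Without glia replicate 3 it was 1.41, under the 4-fold limit, and without glia replicate 1 it was 2.88. The Gria4 value was also under that limit, and the call lost, with edgeR (1.96) and with DESeq2 (1.92).

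Neuron markers in the glial libraries were set beside these values. As a percent of the P8 SGN mean, the summed neuron markers were at 6.91, 1.58 and 0.661% in glia replicates 1, 2 and 3. In the same order Gria3 was at 80.2, 101 and 41.0%, Gria2 at 45.2, 70.4 and 2.74% and Gria4 at 25.0, 19.2 and 2.86%. All 3 pore subunits stood above the summed neuron markers in each of the 3 libraries. Of the SGN markers, Slc17a6 was at 17.3, 0.870 and 0.802%, Slc17a7 at 12.6, 0.773 and 0.345% and Lypd1 at 10.2, 5.04 and 0.897%. Gria3 lay above each of these neuron and SGN markers in all 3 libraries. Glia replicate 2, with the highest Gria2 and Gria3, had Tubb3 at 0.467% and replicate 1 had it at 8.13%. Cacng7 followed the neuron markers more closely, with 18.9% in replicate 1 and 1.23 and 1.21% in the others, and Cacng5 was at 4.17, 0.635 and 0.0815%. The glial markers Sox10 and Foxd3 summed to 189 to 341 TPM in glia and to at most 26.2 TPM in SGNs. Each neuron marker had more than 3 counts in every glial library. The part of neuronal RNA in these levels was not tested.

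**Figure D5:**
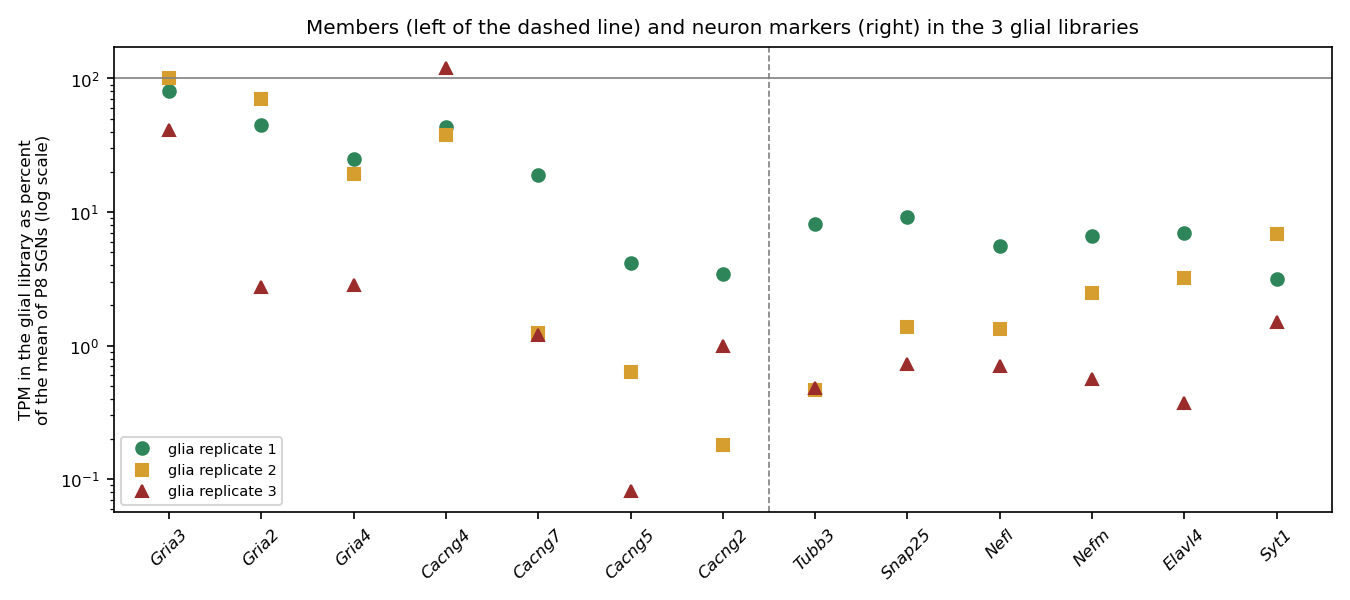
TPM of members (left) and neuron markers (right) in each glial library as a percent of the P8 SGN mean, on a log axis; the grey line marks 100%. Gria3, Gria2, Gria4 and Cacng4 lie at 19.2% or more in glia replicates 1 and 2, where the neuron markers lie at 9.22% or less. In replicate 3 Gria2 and Gria4 lie at 2.74 and 2.86% and the neuron markers at 1.51% or less. SGN markers are not drawn.

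TARPs in glia were few. Cacng4 was at 4.18, 3.60 and 11.5 TPM in glia and its log2 difference was -0.31 (95% interval -1.90 to 1.28, adjusted p = 0.762, limma), with SGNs at P8 at 18.2, 7.21 and 3.34 TPM. In glia replicates 2 and 3, Cacng4 made up 74.0 and 91.7% of the summed TARP TPM, and in replicate 1 it made up 20.97%. Cacng2 was at 0.672, 0.0353 and 0.193 TPM in glia and had a log2 difference of 6.55 (SE 0.91, adjusted p = 5.74e-06, limma). The difference of Cacng5 was 5.96 (SE 0.83, adjusted p = 5.58e-06) and that of Cacng7 was 4.13 (SE 0.59, adjusted p = 7.98e-06). Leaving out 1 glial library gave 5.50 to 7.54 for Cacng2, 4.64 to 7.44 for Cacng5 and 3.38 to 5.66 for Cacng7, with the lowest value without replicate 2 for Cacng2 and Cacng7 and without replicate 3 for Cacng5, and the highest in each without replicate 1. Cacng8, Cacng3 and Gria1 had 0 counts in all glial libraries. The mean of the 5 SGN ages was at least 7.39-fold higher in Cacng8 by the same floor, a bound that does not cover each age. The Cacng8 call (adjusted p = 0.00201, limma) was lost without any 1 glial library and against P8 SGNs alone.

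Other genes of the AMPA receptor pathway were taken from 4 lists written from general knowledge. Of the 15 other auxiliary subunits and assembly factors, 14 were tested across ages, and from E15.5 to P30 5 rose, 3 fell and 6 did not pass, beside 18.4% of all genes that rose and 16.2% that fell. The 3 that fell were the cornichon Cnih2, which slows receptor closing, with a log2 fold change of -4.12, and the CKAMP family members Shisa7 (-5.30) and Shisa6 (-1.79). Shisa7 held 188, 144 and 114 normalised CPM at E15.5 and 3.90, 4.22 and 2.84 at P30. Those that rose were Shisa8 (6.07), Syndig1 (3.79), a receptor-binding synaptic protein, Abhd6 (3.43) and its relative Abhd12 (2.30), and the phosphatase Sacm1l (2.68). Gsg1l passed from E15.5 to P1, with 2.70, and not over the whole span. The median of this list from E15.5 to P30 was -0.05, beside -0.01 over all genes.

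The RNA editing enzymes split in the same span. Adarb1, whose product edits the Gria2 codon shown above, held 47.4, 37.6 and 31.7 normalised CPM at E15.5, 348, 384 and 356 at P8, and 276, 323 and 234 at P30. It rose in both of the first steps, with log2 fold changes of 1.17 from E15.5 to P1 (adjusted p = 0.0383, limma) and 2.09 from P1 to P8 (adjusted p = 5.93e-05), and by 2.86 over the whole span. Adarb2, a relative with no known editing activity of its own, fell with a log2 fold change of -3.65, and Adar did not pass. Adarb1 was at 16.3, 18.7 and 15.9 TPM in HCs and at 3.61, 0.346 and 0.866 TPM in glia, with a log2 difference of SGNs from glia of 3.88 (adjusted p = 3.20e-05, limma). No value here bears on whether Gria2 was edited in any of these cells.

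Of 20 scaffold and trafficking proteins, 19 were tested across ages, and from E15.5 to P30 3 rose, 6 fell and 10 did not pass, beside the same 18.4% and 16.2% of all genes. Nsf, an ATPase that binds GluA2 and also acts in membrane fusion in general, rose from 58.5, 85.3 and 48.6 normalised CPM at E15.5 to 982, 1012 and 1254 at P30. Its log2 fold change was 4.10 (SE 0.21, adjusted p = 1.51e-09, limma). Shank2 (1.60) and Dlg2 (1.04), which encodes PSD-93, also rose. Among the 6 that fell were Homer3 (-5.36), the anchoring protein Akap5 (-4.40), the kainate receptor partner Neto2 (-2.63), Dlg3 (-1.95) and Dlg1 (-1.05). Homer2 passed from E15.5 to P1, with 1.52, and not over the whole span. Dlg4, which encodes PSD-95, stood at 126 ± 12.5 normalised CPM at E15.5 and 143 ± 28.9 at P30 and did not pass. Of the 6 extracellular clustering proteins, Olfm3 (6.03), the pentraxin Nptx2 (5.78) and its receptor Nptxr (2.27) rose, where 18.4% of all genes rose, and 3 did not pass. The list medians were -0.32 for the scaffold proteins and 1.25 for the clustering proteins, beside -0.01 over all genes.

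Of the 15 auxiliary and assembly genes tested against HCs, 3 were higher in SGNs (Syndig1 by a log2 of 6.88, Shisa7 by 4.50 and Porcn by 2.03), 2 were lower in SGNs and 10 did not pass, where 10.5% of all genes were higher and 16.2% lower in SGNs. The 2 were Cnih3 and Shisa6. Cnih3 was at 21.01, 25.6 and 17.6 TPM in HCs and at most 2.79 TPM in SGNs, with a log2 difference of -4.85 (SE 0.47, adjusted p = 2.56e-08, limma). Cnih3 reached the filter on low counts in no SGN group. It entered the test only through the other cells, so its direction is no separate support. Shisa6 was at 64.0, 69.3 and 56.4 TPM in HCs, with -2.16 (SE 0.26, adjusted p = 4.50e-07, limma). Against glia, 7 of the 15 were higher in SGNs and none was lower, where 14.3% of all genes were higher and 10.4% lower. The 7 had log2 differences of 5.10 for Syndig1, 4.18 for Shisa8, 3.47 for Shisa6, 3.29 for Porcn, 3.09 for Frrs1l, 3.02 for Shisa7 and 2.12 for Abhd6.

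Of the scaffold proteins, Shank1 (log2 4.73), Shank3 (3.93) and Nsf (2.22) were higher in SGNs than in HCs, and Shank2 (-4.20) and Dlg1 (-2.75) were lower. Dlg2 (4.02), Shank1 (2.61), Homer2 (2.38) and Nsf (2.21) were higher in SGNs than in glia, and Grasp (-3.44) and Homer3 (-2.57) were lower. Of the clustering proteins, Olfm3 was higher in SGNs than in HCs (6.25) and glia (6.73) and Olfm1 was higher than in glia (2.48), while Nptx1 was higher in HCs (-3.14). Adarb2 was higher in SGNs than in HCs (5.77).

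The genes whose pattern over the 15 SGN libraries was most like each member were listed for the 7 members with a mean of at least 5 TPM at 1 or more ages. Likeness was Pearson's r of log2 normalised CPM among 15113 genes, a description in which the points share libraries, depth and the order of ages. Among the 3 nearest genes were Spryd7, Ugp2 and Rab5a for Gria2 (r 0.929 to 0.938), Slc4a10 and Efr3b for Gria3 (0.857 to 0.863) and Aifm2, Herc1 and Mkrn1 for Gria4 (0.888 to 0.897). Among TARPs they were Asph, Mapk8ip2 and Camta2 for Cacng7 (0.98), Tspan6, Fads2 and B3gnt5 for Cacng4 (0.949 to 0.970), Emid1, Gpr26 and Ezr for Cacng5 (0.904 to 0.952) and Srgap3, Zbtb11 and Adar for Cacng2 (0.828 to 0.848). Between members, Gria2 had r of 0.73 with Cacng7, 0.69 with Cacng2 and -0.81 with Cacng4, and Cacng5 had r of -0.51 with Cacng7.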

How the data were processed

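The 10 members and all gene lists were chosen with earlier results of these data known. The authors amplified total RNA with the Ovation RNA-Seq System V2, mapped reads to mm10 with STAR 2.4.0i, counted them on GENCODE vM15 genes with featureCounts and deposited raw counts with a length per gene. Strand, multimapping and pair settings are not given in the sources used here. Symbols came from GENCODE M21 by identifier, for 52403 of 52550 genes.

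TPM and CPM were computed from the deposited counts. Tests used the tools of the study's methods, and its rule for low counts, but with the mean of the 5 SGN ages, in place of each pair of groups, against HCs and glia: TMM (edgeR 4.0.16), then voom and limma 3.58.1 in R 4.3.3, two-sided, with Benjamini-Hochberg adjustment over the genes tested, which needed a CPM above 1 in each of the 3 replicates of some group. Age comparisons used 15 SGN libraries (15113 genes) and comparisons with HCs and glia all 21 (17531 genes). 8 members passed this filter. On simulated counts of 15113 genes set up as E15.5 to P30, limma called 61% of genes changed by a log2 of 3 and 30% of those changed by 1.5. Every member was named, and of the lists every gene that passed in at least 1 comparison, plus Adar and Dlg4, chosen after their values were seen. A few marker, list and nearest genes are not reported here, and marker sums were taken without them. DESeq2 1.42.0, edgeR's quasi-likelihood test and other alternatives were run. Replicate numbers were checked as pairs by correlating deviations from the age means over 15113 genes: same-numbered libraries had r of 0.393, 0.244 and 0.104 at P14 and P30 and 0.396, 0.188 and 0.162 at P8 and P30, each above 0.1, and at least 1 of the 3 lay below it at every other pair of ages. The labels give no reason for a pairing.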

Additional observations from a re-analysis of the deposited data

How the results depend on the processing

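The number of members that passed was recomputed under the alternatives of each of the 7 comparisons. This gave 97 results, each for 1 comparison in 1 setting, and 86 stayed within 1.5 times. A count of 0 that stayed at 0 was taken as kept, as in steps where no member had passed. With library size alone in place of TMM, 3 members passed from E15.5 to P30, since Gria2 and Cacng7 fell under 2-fold. From P1 to P8, edgeR and DESeq2 each gave 0, as Cacng4 had a log2 value of -1.95 (adjusted p = 0.273) and -1.97 (0.373). From P14 to P30, DESeq2 gave 1 and sample quality weights gave 1, Cacng5 in both. DESeq2 gave 3 against glia, with no adjusted p for Cacng7 and with Gria4 under 4-fold. Against HCs DESeq2 also gave no adjusted p for Cacng7, and Cacng5 was under 4-fold (1.92). Results without an adjusted p were left out of the recomputed fold changes and lost calls counted below. Leaving out 1 library gave 0 to 1 members from E15.5 to P1 (Gria3 without E15.5 replicate 1), 0 to 1 from P1 to P8, 5 to 8 against HCs (5 without HC replicate 3) and 3 to 5 against glia (3 without glia replicate 3). With a replicate block the counts were 0, 1, 0, 0 and 5 for the age comparisons, 8 against HCs and 5 against glia, the same as without it, and it changed no call. No called member changed sign in any setting, and of 773 recomputed fold changes of members 30 lost their call and 7 gained one. The cause of these shifts was not tested. The log2 value of Cacng4 from E15.5 to P30 was -5.49 with edgeR, -5.57 with DESeq2 and -6.27 with the replicate block. Cacng8 passed from E15.5 to P30 with 15 libraries and not with the 6 libraries of that comparison (adjusted p = 0.0696) or without the filter on low counts (0.0626). Sharing by CPM in place of TPM moved 33 of 70 shares by over 1 SD. Depth limits Gria1, Cacng3 and Cacng8, whose libraries often held under 10 counts.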
